A study of Mus musculus with 3 samples.

Results

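The members described here are the genes of oxidative phosphorylation, the process by which mitochondria turn the energy of food into ATP, in cells of 4 mouse brains. They were chosen by gene symbol alone: those that begin with mt-, Ndufa, Ndufb, Ndufc, Ndufs, Ndufv, Uqcr, Atp5, Cox4, Cox5, Cox6, Cox7 or Cox8. The rule found 99 of the 17551 genes in the deposited table. Of these, 13 are encoded by the mitochondrial genome, 77 are nuclear genes for subunits, and 9 match the prefix without being subunits (the assembly factors Ndufaf1 to Ndufaf7, Atp5s and Atp5sl). The mitochondrially encoded and the nuclear members are given apart throughout.

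Complex I (NADH dehydrogenase) and complex II (succinate dehydrogenase) take electrons from metabolism. Complex III (cytochrome bc1) hands them to cytochrome c, complex IV (cytochrome c oxidase) hands them to oxygen, and complex V (ATP synthase) uses the resulting proton gradient to make ATP. Complexes I, III, IV and V are mosaics: the catalytic core is built partly from the small mitochondrial genome, which is present in many copies per cell, and the remaining subunits come from nuclear genes. In the brain, the epithelium of the choroid plexus, which secretes cerebrospinal fluid, and the endothelium of the blood-brain barrier are both known for their many mitochondria. High mitochondrial RNA in a droplet is also widely used as a sign of a damaged cell.

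Cells were isolated from brains of female C57BL/6 mice 2 to 3 months old. Some brains bore metastases grown from E0771 cells, a line of mouse mammary carcinoma that had been injected by the carotid route about 2 weeks earlier, and the others were naive. Each of the 4 brains was stained with its own hashtag antibody and with 6 antibodies against surface proteins before all were pooled into one 10x Genomics 3′ (version 2) run with CITE-seq, so mRNA and protein tags were counted in the same droplets. Which hashtag marked a naive and which a metastatic brain is not given in the sources used here, so no naive brain was set against a metastatic one, and brains are named by hashtag.

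Levels are UMIs per 10000 UMIs of the cell, averaged over the cells of a class in a brain. A UMI stands for one captured mRNA 3′ end, so levels are not scaled by transcript length. The table held 4668 cells: 844, 410, 1385 and 2029 in brains 1, 2, 3 and 4. UMIs per cell ranged from 2495 to 43038, with a median of 9472. Brains 1 and 2 stood apart from brains 3 and 4. Their median depth was 4370.5 and 5599.5 UMIs per cell, against 12450 and 12806 in brains 3 and 4. The 13 mitochondrially encoded genes summed to 682 and 808 per 10000 in brains 1 and 2, and to 301 and 271 per 10000 in brains 3 and 4. Several results are therefore also given for brains 3 and 4 alone, though not every result that rests on brains 1 and 2. That alternative, and the ones that use Ttr below, were chosen after the data had been seen. A fit of 2 brains leaves 1 residual degree of freedom, so its p-values and counts of calls rest on the spread of all genes.

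The deposited cell table sorts cells into clusters 0 to 10, without names. Cluster 1 (880 cells) was choroid plexus-like, with Kcnj13, Enpp2 and Kl among its 10 leading genes. Cluster 4 (295 cells) was endothelial-like, led among others by Cldn5, Ly6c1, Flt1 and Itm2a. Cluster 9 (162 cells) was smooth muscle-like, with Tagln, Acta2, Myl9 and Myh11. The other clusters are called by number. Cluster 3 was led by Ctss and C1qc, cluster 6 by the neutrophil granule genes Camp and Ngp, clusters 0 and 7 by genes that included Rhox5, and cluster 2 by immunoglobulin genes. Leading genes rank by fold over the other clusters, so they alone do not make cluster 2 a cluster of antibody-producing cells. Cluster 5 was led by Ctsk, Acp5 and Mmp9, cluster 8 by Mgp, Dcn and Prg4, and cluster 10 by Csf2 and haemoglobin genes. The authors made the clusters from the RNA of the same cells. Of the 10 leading genes of cluster 5, 7 are mitochondrially encoded members, so their level in that cluster is a description and not a finding.

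Mitochondrially encoded RNA varied more between clusters than nuclear subunit RNA did. The 13 mitochondrially encoded genes summed to 1435 ± 245 per 10000 in cluster 5 (SD, n = 4 brains), 801 ± 127 in cluster 1 (n = 4), 463 ± 250 in cluster 9 (n = 3), 340 ± 73.8 in cluster 4 (n = 4) and 150 ± 10.6 in cluster 7 (n = 2). Only brains with at least 20 cells of a cluster enter these means. In order of the mean the clusters ran 5, 1, 2, 9, 8, 4, 6, 0, 3, 10 and 7. Clusters 5 and 1 did not overlap with each other: cluster 5 had 1656, 1637, 1207 and 1239 per 10000 in brains 1 to 4, and cluster 1 had 896, 924, 682 and 702. Clusters 2, 9, 8, 4, 6 and 0, in the middle of the order, overlapped in their brains. Cluster 2 had 971 and 1040 per 10000 in brains 1 and 2, and 164 and 151 in brains 3 and 4, so its mean of 582 ± 490 describes neither pair.

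**Figure D1:**
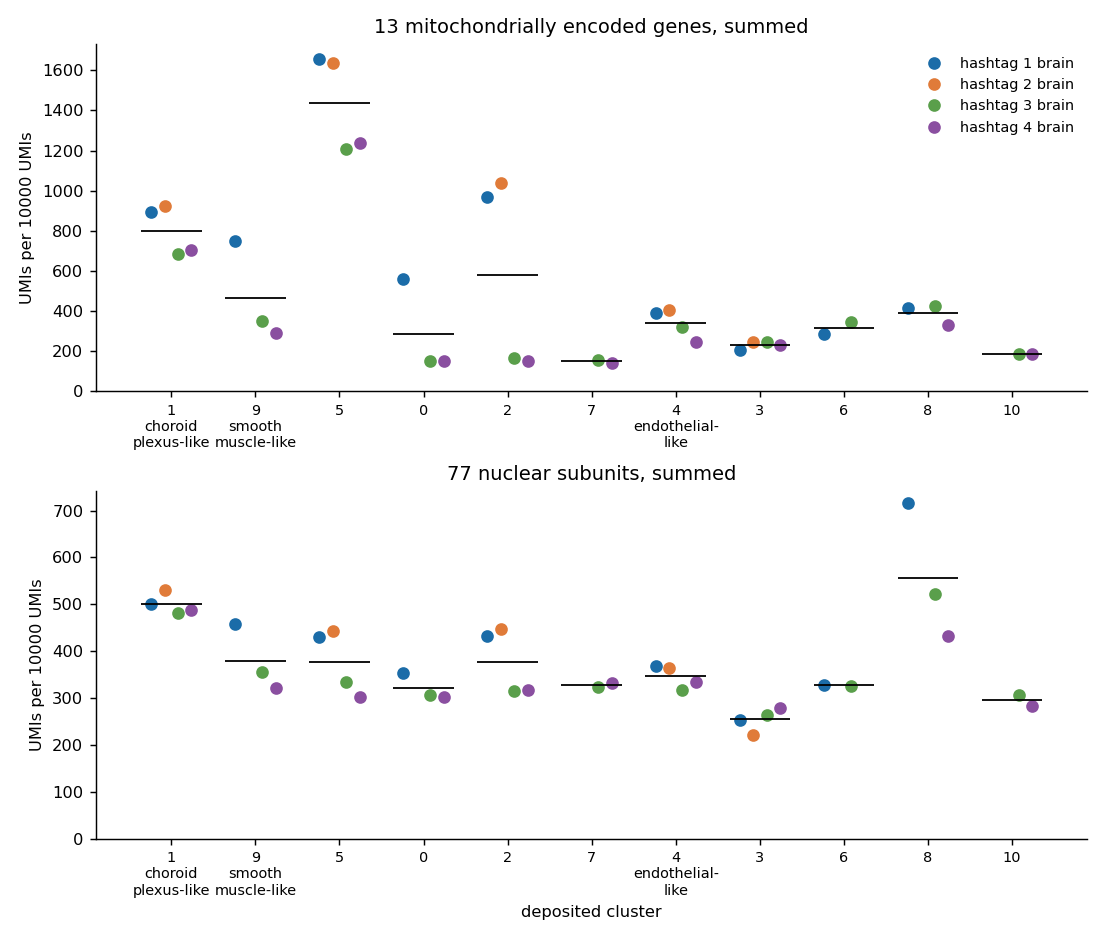
Summed level of the 13 mitochondrially encoded genes and of the 77 nuclear subunits, in UMIs per 10000 UMIs, in each deposited cluster. Horizontal lines are means over brains with at least 20 cells and points are single brains. Cluster 5 has the highest mitochondrially encoded sum (1435 per 10000), and clusters 8 and 1 have the highest nuclear sums (557 and 500 per 10000).

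The 77 nuclear subunits summed to 557 ± 146 per 10000 in cluster 8 (SD, n = 3), 500 ± 22.3 in cluster 1 (n = 4), 346 ± 24.3 in cluster 4 (n = 4) and 254 ± 24.4 in cluster 3 (n = 4). The order of the nuclear means was 8, 1, 9, 2, 5, 4, 7, 6, 0, 10 and 3. Clusters 8 and 1 overlapped, because cluster 8 spread over 717, 522 and 432 per 10000 in brains 1, 3 and 4, whereas cluster 1 held 500, 531, 481 and 488 in brains 1 to 4. Cluster 5, first for mitochondrial genes, averaged 377 ± 69.9 per 10000 for nuclear subunits and overlapped with cluster 4. The ratio of the nuclear to the mitochondrial sum accordingly lay between 0.24 and 0.28 in the 4 brains of cluster 5, between 0.56 and 0.70 in cluster 1, between 0.90 and 1.36 in cluster 4, and between 2.05 and 2.32 in the 2 brains of cluster 7.

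All 13 mitochondrially encoded genes had their highest mean in cluster 5, and 12 had their lowest in cluster 7, with mt-Atp8 lowest in cluster 3. The highest cluster exceeded the lowest by a median of 10.2-fold over these genes. Among the nuclear subunits the median was 2.37-fold, with 51 highest in cluster 8 and 11 in cluster 1, and 40 lowest in cluster 3. The spread was widest for 4 tissue-restricted forms. Cox8b averaged 4.46 per 10000 in cluster 8 and 0.115 in cluster 10, and Cox6b2 averaged 2.86 and 0.0807 in the same clusters. These cluster 10 levels rest on 7 and 11 UMIs and are not read as expression, so no fold is given. The cluster 8 levels of both genes are parted by Ttr below. Cox4i2 averaged 0.776 in cluster 9 and 0.0211 in cluster 0, and Ndufa4l2 averaged 1.07 in cluster 9 and 0.0634 in cluster 1. Uqcrfs1, the Rieske iron-sulfur protein of complex III, varied least, at 1.38-fold.

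Cells with choroid plexus RNA were unevenly spread over brains. Ttr, the thyroid hormone carrier that choroid plexus epithelium makes in great amounts, was at a median of 3292 to 3665 per 10000 in cluster 1 in the 4 brains. In other clusters some cells also held Ttr at 500 per 10000 or more. In cluster 2 these made up 65.9% and 70.8% of cells in brains 1 and 2, against 3.16% and 3.27% in brains 3 and 4. In cluster 5 they made up 91.9%, 96.6%, 40.0% and 27.5% of cells in brains 1 to 4. In cluster 4 they made up 23.6%, 28.6%, 14.8% and 10.5%, and in cluster 8 they made up 86.8%, 58.8%, 51.6% and 30.4%. The other 7 choroid plexus markers, all above 0 in clusters 1, 5, 8 and 4, summed to 163 per 10000 in cluster 1, 109 in cluster 5, 50.4 in cluster 8 and 21.5 in cluster 4.

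Within a cluster, cells at or above this level of Ttr held more of both kinds of member than cells below it. In cluster 5 the 129 Ttr-high cells averaged 1703 per 10000 for the mitochondrial and 420 for the nuclear members, against 989 and 288 in the 97 other cells. In cluster 2 the 67 Ttr-high cells averaged 1302 and 473 per 10000, against 125 and 312 in 711 cells. In cluster 4 the 54 Ttr-high cells averaged 651 and 512, against 260 and 306 in 241 cells. In cluster 8, the cluster with the highest nuclear mean, the 119 Ttr-high cells averaged 464 and 742, against 306 and 344 in 66 cells. Cox8b and Cox6b2 averaged 6.70 and 4.90 per 10000 in those 119 cells, against 0.451 and 0.398 in the 66 others. Cluster 5 therefore had a high mitochondrial level in both kinds of cell, and its Ttr-low cells stood at 899 and 1035 per 10000 in brains 3 and 4. In cluster 2 the level was high in the Ttr-high cells alone. Ttr-high cells were much shallower in cluster 2, with a median of 5098 UMIs against 19049 in its other cells. The medians were 3582 against 13128 in cluster 0, and 5139 against 12541.5 in cluster 9. They were 3286 against 5550 in cluster 8, 3548 against 4231 in cluster 5, and 3717 against 4015 in cluster 4. In cluster 3 the Ttr-high cells were deeper (6541 against 3738). Cells are not replicates, so these splits carry no test, and the part of doublets, free RNA and damage in them was not tested.

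**Figure D2:**
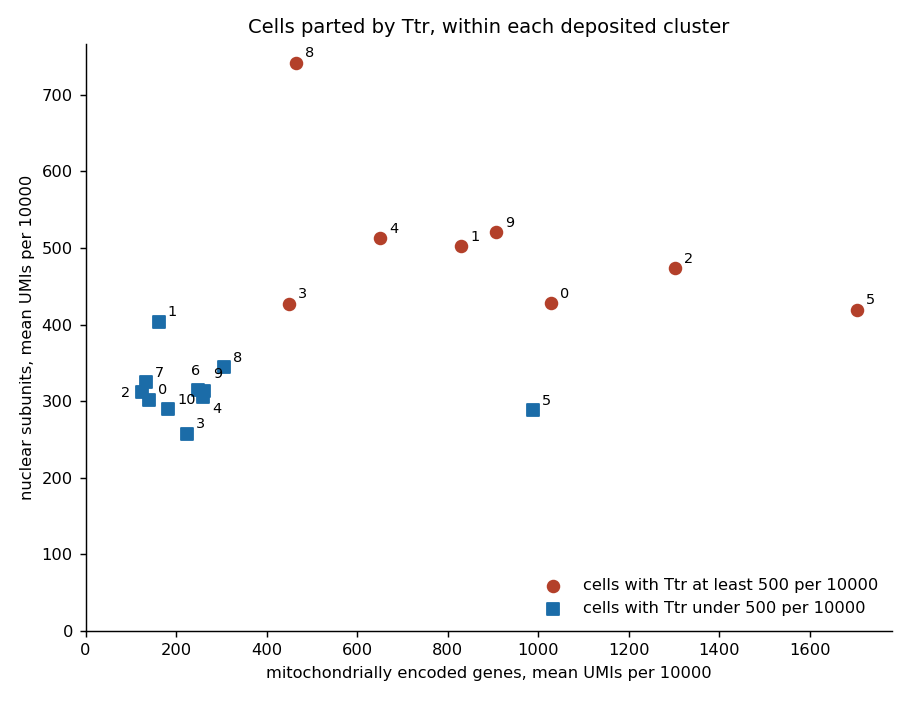
Mean summed level of the nuclear subunits against that of the mitochondrially encoded genes, both in UMIs per 10000 UMIs, with 1 numbered point per cluster for cells with Ttr at or above 500 per 10000 and 1 for cells below it. In cluster 2 the mitochondrial sum is 1302 per 10000 in Ttr-high and 125 per 10000 in Ttr-low cells, and in cluster 5 it is 1703 and 989 per 10000.

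Choroid plexus-like cluster 1 minus endothelial-like cluster 4 rested on 181 to 291 cells per brain in cluster 1 and 56 to 86 in cluster 4. Mitochondrially encoded RNA was higher in cluster 1: 11 of the 13 genes rose, and mt-Nd6 and mt-Atp8 were not called. Nuclear subunits rose more often than they fell: of 75 tested, 41 were higher, 6 were lower and 28 did not pass. The median difference was 1.23 on the log2 scale for mitochondrial and 0.34 for nuclear members. Over all 8640 genes tested, 15.4% were higher and 32.2% were lower in cluster 1, with a median of -0.26. The test was limma with an intensity trend on log2(mean per 10000 + 0.1), with the brain as a block and a Benjamini-Hochberg adjusted p of 0.05. Per-10000 levels in cluster 1 share their total with Ttr. Under median-of-ratios scaling the median of all genes moved by 0.26 to 0.00, the higher share of all calls was 53.6% instead of 32.3%, and 61 nuclear subunits were higher and 2 lower, beside 22.5% and 19.5% of all genes. The mitochondrial count stayed at 11 higher. In brains 3 and 4 alone, 11 mitochondrial genes were higher, and 32 nuclear subunits were higher and 4 lower, beside 12.6% and 23.3% of all genes. Malat1, a nuclear RNA used as a sign of RNA quality, was at 74.5, 61.4, 62.5 and 72.0 per 10000 in cluster 1, against 368, 360, 241 and 217 in cluster 4, and its part in the members' differences was not tested.

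**Figure D3:**
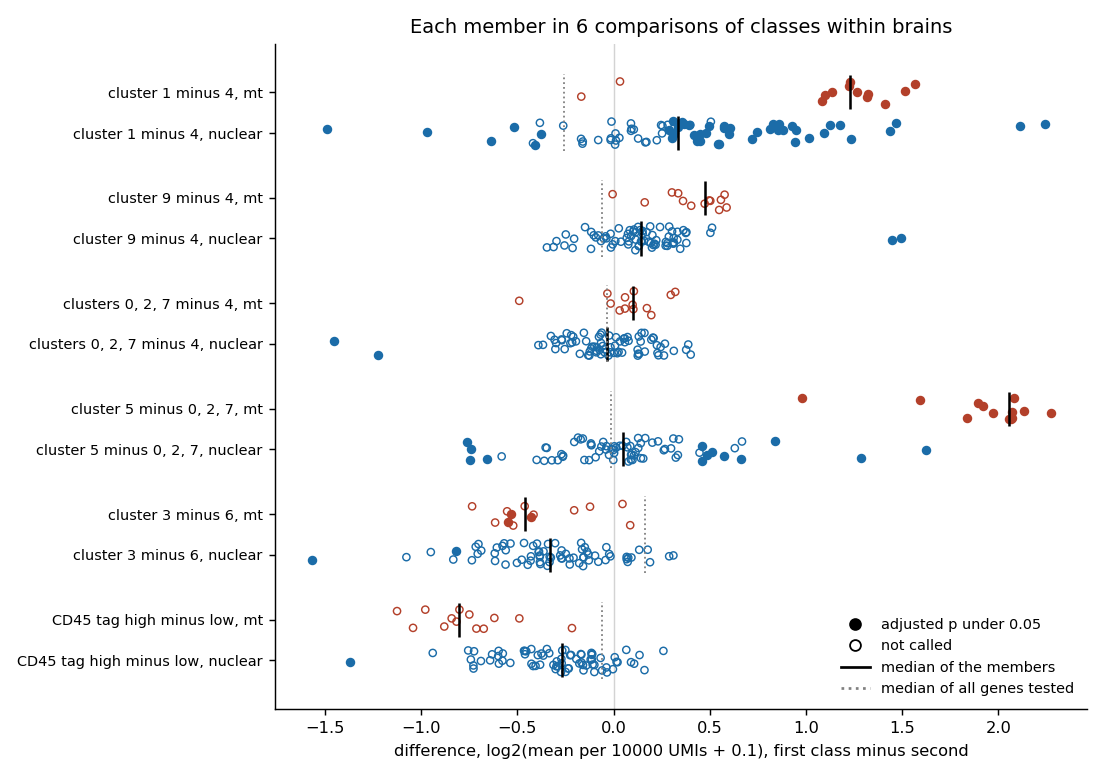
Difference of each tested member on the log2(mean per 10000 + 0.1) scale in the 6 comparisons, with mitochondrially encoded (mt) and nuclear members apart, filled where called, and with solid lines for the members' median and dotted lines for that of all genes. In cluster 1 minus cluster 4 the 11 called mitochondrial genes lie between 1.08 and 1.57.

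Complex I holds 7 mitochondrially encoded core subunits. mt-Nd1, a membrane subunit next to the ubiquinone site, had 111, 119, 82.8 and 82.2 UMIs per 10000 in cluster 1 in brains 1 to 4, against 40.4, 39.3, 34.4 and 21.2 in cluster 4. All 4 brains of cluster 1 lay above all 4 of cluster 4, and the difference was 1.57 ± 0.10 (log2, SE; limma adjusted p = 5.8e-09). mt-Nd3, a small membrane subunit, had 7.91, 8.0, 4.44 and 5.20 per 10000 in cluster 1 and 2.63, 3.34, 1.71 and 1.28 in cluster 4, a log2 difference of 1.51 without overlap. mt-Nd4, a proton-pumping subunit, had 46.6, 47.7, 28.9 and 36 per 10000 in cluster 1, against 19.0, 19.4, 11.8 and 10.4 in cluster 4. It differed by 1.41, and in cluster 1 brains 1 and 2 were above brains 3 and 4. mt-Nd2, mt-Nd4l and mt-Nd5 differed by 1.10, 1.22 and 1.27. mt-Nd6, the one member encoded on the light strand, had 0.285, 0.343, 0.177 and 0.294 per 10000 in cluster 1, against 0.226, 0.366, 0.404 and 0.288 in cluster 4. The groups overlapped, and the log2 difference of -0.17 ± 0.23 (limma adjusted p = 0.57) changed sign under median-of-ratios scaling, edgeR and DESeq2. mt-Nd4l overlaps mt-Nd4 in the genome, and mt-Atp8 overlaps mt-Atp6, so reads can be divided between the partners.

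Of the 36 nuclear subunits of complex I tested, 15 were higher and 2 were lower in cluster 1. They are accessory subunits and the flavin and iron-sulfur subunits of the arm that binds NADH. Ndufa1, an accessory subunit encoded on the X chromosome and needed for assembly, had 9.10, 10.0, 8.89 and 8.45 per 10000 in cluster 1, against 3.69, 3.88, 2.93 and 2.84 in cluster 4. All brains of cluster 1 were above all of cluster 4, by 1.43 ± 0.11 (log2, SE; limma adjusted p = 3.8e-08). Ndufa13, also known as GRIM-19, had 11.5, 12.6, 12.7 and 12.5 per 10000 in cluster 1 and 6.94, 6.18, 4.30 and 5.78 in cluster 4, and differed by 1.10 ± 0.12. Ndufa11, Ndufa3 and Ndufv3 differed by 1.12, 0.94 and 0.83 without overlap. Ndufa2 differed by 0.34 (limma adjusted p = 0.014), a call lost without brain 1 or brain 2. Ndufa7 differed by -0.26 and was not called (limma adjusted p = 0.074). Ndufa8, an accessory subunit with conserved cysteine pairs, had 2.02, 2.36, 2.32 and 2.23 per 10000 in cluster 1, against 3.21, 4.05, 3.89 and 3.01 in cluster 4. It was lower without overlap, by -0.63 ± 0.12 (limma adjusted p = 0.00062), and by -0.27 (limma adjusted p = 0.090), no longer called, under median-of-ratios scaling. Ndufb4 differed by -0.41 (limma adjusted p = 0.018), a call lost without brain 2 or brain 4 and under median-of-ratios scaling, where the difference was -0.05.

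Complex III has 1 mitochondrially encoded subunit, mt-Cytb, the cytochrome b that carries both quinone sites. It had 90.2, 93.6, 71.4 and 71.3 per 10000 in cluster 1 and 39.7, 42.4, 28.2 and 23.1 in cluster 4, without overlap, a log2 difference of 1.32. Of the 8 nuclear subunits, 5 were higher and none was lower in cluster 1. These were the small subunits Uqcrb, Uqcr10, Uqcr11, Uqcrq and Uqcrh, which differed by 0.93, 0.81, 0.72, 0.45 and 0.39, each without overlap. Uqcrc1, a large core protein, differed by -0.08 (limma adjusted p = 0.68).

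Complex IV takes its 3 catalytic subunits from the mitochondrial genome. mt-Co1, which holds the oxygen-reducing centre, had 161, 167, 129 and 128 per 10000 in cluster 1, against 72.7, 76.9, 70.8 and 55.7 in cluster 4. It differed by 1.08 ± 0.08 (log2, SE; limma adjusted p = 1.8e-08) without overlap. mt-Co3 had 202, 203, 146 and 159 per 10000 in cluster 1 and 85.1, 89.3, 61.8 and 52.1 in cluster 4, a difference of 1.32 ± 0.08. mt-Co2, which receives electrons from cytochrome c, differed by 1.23.

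The nuclear subunits of complex IV had the widest range of responses: 12 of 16 tested were higher and 2 were lower in cluster 1. Many come in a common and a tissue-restricted form. Cox8b, the form of subunit 8 known from heart and muscle in rodents, had 4.36, 4.46, 2.52 and 3.19 per 10000 in cluster 1, against 0.977, 1.59, 0.247 and 0.456 in cluster 4. All brains of cluster 1 were above all of cluster 4, by 2.24 ± 0.20 (log2, SE; limma adjusted p = 1.7e-07). Its common counterpart Cox8a had 25.4, 26.6, 21.2 and 22.7 per 10000 in cluster 1 and 14.8, 13.8, 11.3 and 12 in cluster 4, a smaller difference of 0.88 ± 0.09. The ratio of Cox8b to Cox8a was 0.150 ± 0.025 in cluster 1 and 0.060 ± 0.041 in cluster 4 (SD, n = 4). Cluster 4 cells with Ttr under 500 per 10000 held 1.32% to 4.62% of the cluster 1 level of Cox8b, so the cluster 4 ratio is not read as expression of Cox8b in those cells. The bases upstream of the start of each gene are printed because this pair is expressed so unequally. They are the 250 before the annotated start, in RefSeq, build GRCm38.p6, minus strand, written 5′ to 3′ at chr7:140900447-140900696 and chr19:7217617-7217866. Neither stretch held any of the motifs searched for (given with ATP synthase), so no letters are in capitals. Cox8b held TATAAA from base 5 to base 10 of the transcribed part. Cox8a held CCGGAAGT on the other strand from base 32 to base 39, and a further match that spans the start, from 6 bases before it to base 2.
Cox8b: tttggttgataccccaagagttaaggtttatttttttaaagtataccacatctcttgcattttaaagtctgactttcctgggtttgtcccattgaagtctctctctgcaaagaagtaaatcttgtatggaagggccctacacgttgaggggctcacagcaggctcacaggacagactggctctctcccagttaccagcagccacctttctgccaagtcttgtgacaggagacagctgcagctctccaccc
Cox8a: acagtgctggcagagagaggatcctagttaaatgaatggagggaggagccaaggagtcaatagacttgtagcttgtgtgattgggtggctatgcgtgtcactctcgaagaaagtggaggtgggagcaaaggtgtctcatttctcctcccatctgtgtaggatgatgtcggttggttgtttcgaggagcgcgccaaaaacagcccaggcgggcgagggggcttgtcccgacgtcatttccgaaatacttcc

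Cox6b2, the testis-enriched form of subunit 6b, had 2.72, 2.89, 2.57 and 2.45 per 10000 in cluster 1, against 0.791, 0.610, 0.484 and 0.343 in cluster 4, without overlap. It differed by 2.11 ± 0.16 (limma adjusted p = 4.2e-08), and the common form Cox6b1 by 0.29 (limma adjusted p = 0.029), a call lost without brain 2 or brain 4. Cox7a1, the heart and muscle form of subunit 7a, had 0.952, 1.08, 0.467 and 0.810 per 10000 in cluster 1 and 0.595, 0.548, 0.0717 and 0.0425 in cluster 4. It was higher in cluster 1 within each brain, by 1.47 ± 0.28 (limma adjusted p = 0.00044), though the levels overlapped between brains. Cox7a2, the common form, differed by 0.55. Cox7a2l, a related protein that joins complexes III and IV into supercomplexes, had 1.51, 1.70, 1.85 and 1.99 per 10000 in cluster 1, against 3.09, 3.76, 3.38 and 3.96 in cluster 4. It was lower without overlap, by -0.97 ± 0.12 (limma adjusted p = 1.2e-05), and by -0.61 under median-of-ratios scaling (limma adjusted p = 0.00086). Its ratio to Cox7a2 was 0.173 ± 0.036 in cluster 1 and 0.513 ± 0.106 in cluster 4 (SD, n = 4).

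Ndufa4, long counted with complex I and now placed in complex IV, had 20.4, 23.2, 22.1 and 20.2 per 10000 in cluster 1 and 10.5, 9.52, 9.45 and 8.25 in cluster 4. It was higher without overlap, by 1.18 ± 0.10 (limma adjusted p = 7.3e-08). Its hypoxia-inducible relative Ndufa4l2 went the other way, with 0.077, 0.0525, 0.062 and 0.0623 per 10000 in cluster 1, against 0.737, 0.526, 0.242 and 0.145 in cluster 4. These levels of Ndufa4l2 rest on 14, 7, 10 and 10 UMIs in cluster 1 and 18, 13, 8 and 12 in cluster 4. The difference was -1.49 ± 0.27 (limma adjusted p = 0.00037), without overlap, and -0.84 in brains 3 and 4 alone. The 5 markers of pericytes summed to 0.643, 0.540, 0.566 and 0.393 per 10000 in cluster 1, against 6.05, 7.52, 3.31 and 0.942 in cluster 4, and their part in this difference was not tested. Cox4i1, the common form of subunit 4 and the member with the highest mean over all cells among nuclear complex IV subunits, had 21.8, 21.6, 21.4 and 21.5 per 10000 in cluster 1 and 17.1, 15.9, 15.8 and 15.1 in cluster 4, a difference of 0.43 ± 0.09. Cox6c and Cox7c differed by 0.95 and 0.55. Cox6a1 differed by 0.16 and was not called (limma adjusted p = 0.19).

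**Figure D4:**
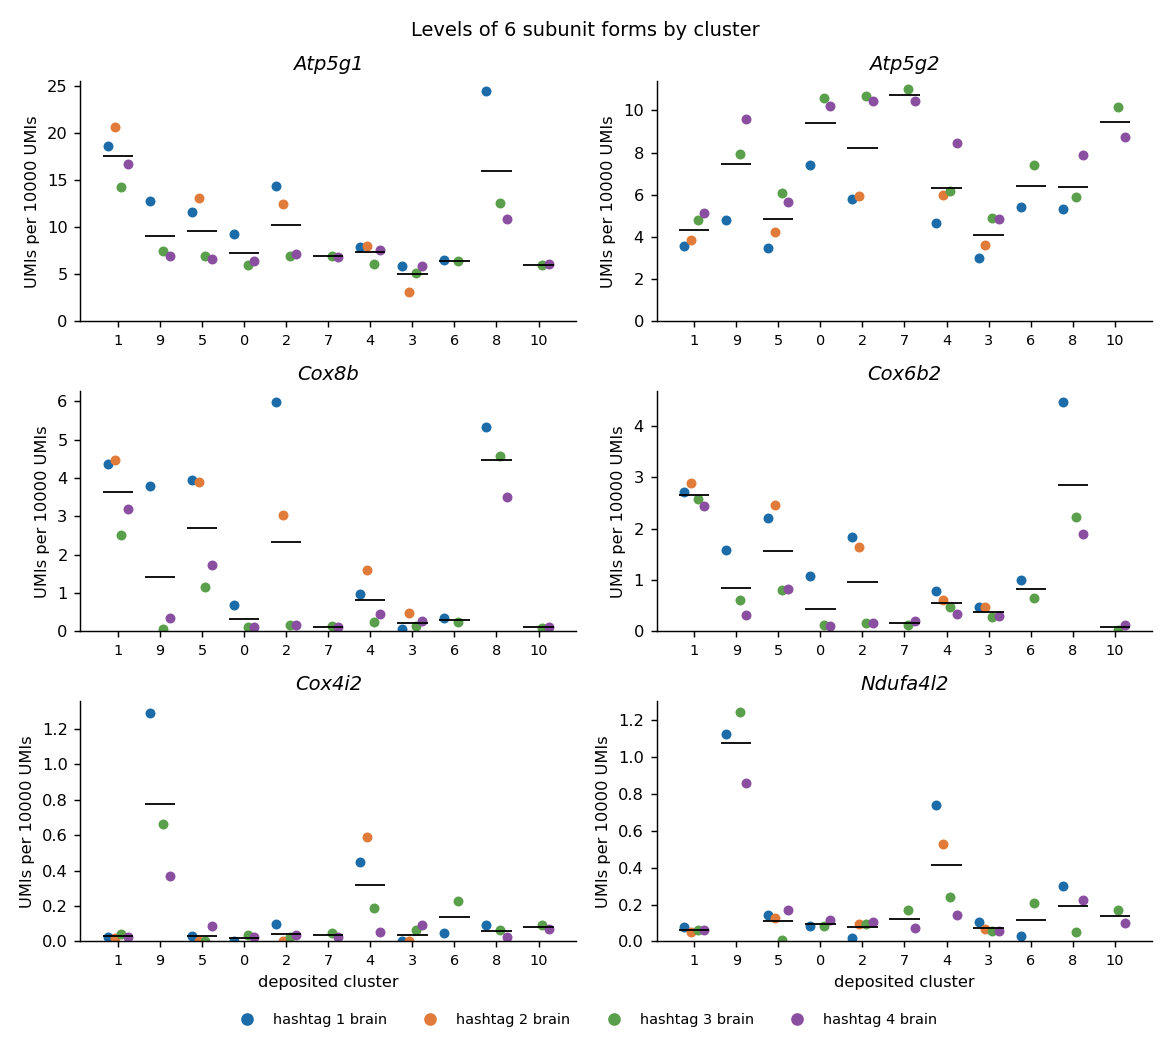
Levels of 6 subunit forms in UMIs per 10000 UMIs by cluster, with horizontal lines for the mean over brains with at least 20 cells and points for single brains. Cox8b and Cox6b2 have high means in clusters 1 and 8, and Ndufa4l2 and Cox4i2 have their highest means in cluster 9 (1.07 and 0.776 per 10000). In cluster 8, Cox8b averages 6.70 per 10000 in Ttr-high and 0.451 in Ttr-low cells, and Cox6b2 4.90 and 0.398.

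Complex V takes mt-Atp6 and mt-Atp8, parts of its membrane portion, from the mitochondrial genome. mt-Atp6 had 182, 187, 152 and 147 per 10000 in cluster 1 and 89.2, 87.6, 76.2 and 55.0 in cluster 4, without overlap, a log2 difference of 1.13. mt-Atp8 had 1.5, 1.64, 1.16 and 1.43 per 10000 in cluster 1, against 1.54, 1.23, 1.48 and 1.32 in cluster 4, and the groups overlapped, with a difference of 0.03 (limma adjusted p = 0.88). Of the 15 nuclear subunits 9 were higher and 2 were lower in cluster 1. Atp5l, Atp5k, Atp5e and Atp5j differed by 0.75, 0.60, 0.42 and 0.31, and the call of Atp5j was lost without brain 4. Atp5a1, the alpha subunit of the catalytic head, differed by 0.50. Atp5b, the beta subunit beside it, differed by 0.03 (limma adjusted p = 0.84). Atp5c1, the gamma subunit of the central shaft, differed by -0.38 (limma adjusted p = 0.018), a call lost without brain 1 or brain 4 and under median-of-ratios scaling, where the difference was -0.01.

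The 3 genes Atp5g1, Atp5g2 and Atp5g3 encode the same mature c subunit, the protein of the rotating ring, and did not move together. Atp5g1 had 18.6, 20.7, 14.3 and 16.7 per 10000 in cluster 1, against 7.90, 8.02, 6.08 and 7.63 in cluster 4, and differed by 1.23 ± 0.10 (log2, SE; limma adjusted p = 4.2e-08). Atp5g3 had 6.69, 7.92, 6.67 and 6.46 per 10000 in cluster 1, against 3.51, 3.15, 3.61 and 3.20 in cluster 4, and differed by 1.02 ± 0.12. Both were higher in cluster 1 without overlap. Atp5g2 had 3.58, 3.87, 4.82 and 5.12 per 10000 in cluster 1, against 4.66, 6.00, 6.21 and 8.46 in cluster 4. It was lower in cluster 1 within each brain, by -0.52 ± 0.11 (limma adjusted p = 0.0015), with overlap between brains. Under median-of-ratios scaling the difference was -0.15 (limma adjusted p = 0.35). The ratio of Atp5g1 to Atp5g2 within a brain does not depend on the scaling: it was 4.20 ± 1.26 in cluster 1, from 2.96 to 5.36, and 1.23 ± 0.37 in cluster 4, from 0.901 to 1.70 (SD, n = 4). It was 0.647 and 0.641 in clusters 7 and 10.

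The upstream bases of Atp5g1 and Atp5g2 are printed because these genes for 1 mature protein moved apart. They are the 250 before the annotated start in RefSeq, build GRCm38.p6, minus strand, written 5′ to 3′ at chr11:96075632-96075881 and chr15:102671048-102671297. Capitals mark the letters GCATGCGC, a motif of nuclear respiratory factor 1, a transcription factor of many nuclear mitochondrial genes. It was found 40 to 33 bases before the start of Atp5g2 and, on the other strand, 42 to 35 bases before it, and the 2 matches overlap.
Atp5g1: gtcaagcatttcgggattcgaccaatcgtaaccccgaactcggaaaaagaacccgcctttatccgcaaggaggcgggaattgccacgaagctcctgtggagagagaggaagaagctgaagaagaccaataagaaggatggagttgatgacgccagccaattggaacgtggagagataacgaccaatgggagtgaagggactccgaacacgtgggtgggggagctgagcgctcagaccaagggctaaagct
Atp5g2: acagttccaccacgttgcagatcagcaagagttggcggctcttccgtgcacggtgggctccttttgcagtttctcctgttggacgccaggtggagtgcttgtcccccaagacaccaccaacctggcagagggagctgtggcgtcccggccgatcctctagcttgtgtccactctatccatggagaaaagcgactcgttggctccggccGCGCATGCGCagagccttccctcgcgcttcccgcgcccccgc

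RefSeq promoter windows, from 250 bases before to 50 after a start, were matched for 63 of the 77 nuclear subunits, as 68 windows. GCATGCGC was in 9 of the 68 (13.2%) and in 2.71% of all 32851 windows of the same length. Of the 9 genes, Atp5k, Atp5l, Ndufa11 and Uqcr11 were higher in cluster 1 than in cluster 4, Atp5g2 and Ndufa8 were lower, and Cox6a1, Ndufa6 and Uqcrc1 were not called. CCGGAAGT, a motif of the ETS family, was in 7.35% of the member windows and 3.89% of all windows. AAGATGGCG, a motif of YY1, was in 10.3% and 1.4%, and TATAAA in 10.3% and 13.6%. Both strands were searched, overlaps between motifs were not removed, and a match is a description of the letters and not a binding site.

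The mitochondrial genes did not change in equal proportion. mt-Nd1 made 12.4%, 12.9%, 12.1% and 11.5% of the mitochondrially encoded UMIs in cluster 1 in brains 1 to 4, against 9.80%, 9.80%, 10.0% and 7.69% in cluster 4. mt-Co1 made 18.1%, 18.2%, 19.4% and 18.7% in cluster 1, against 19.5%, 19.5%, 23.5% and 24% in cluster 4. The ratio of mt-Nd1 to mt-Co1, which no scaling changes, was 0.684, 0.710, 0.624 and 0.614 in cluster 1 and 0.504, 0.502, 0.427 and 0.320 in cluster 4, without overlap. In cluster 7 mt-Nd1 made 6.93% and mt-Co1 25% of the mitochondrially encoded UMIs. Levels of these genes cannot be compared as transcript numbers with those of nuclear genes, because mitochondrial transcripts are processed from long precursors and their capture by a 3′ assay is not given in the sources used here.

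**Figure D5:**
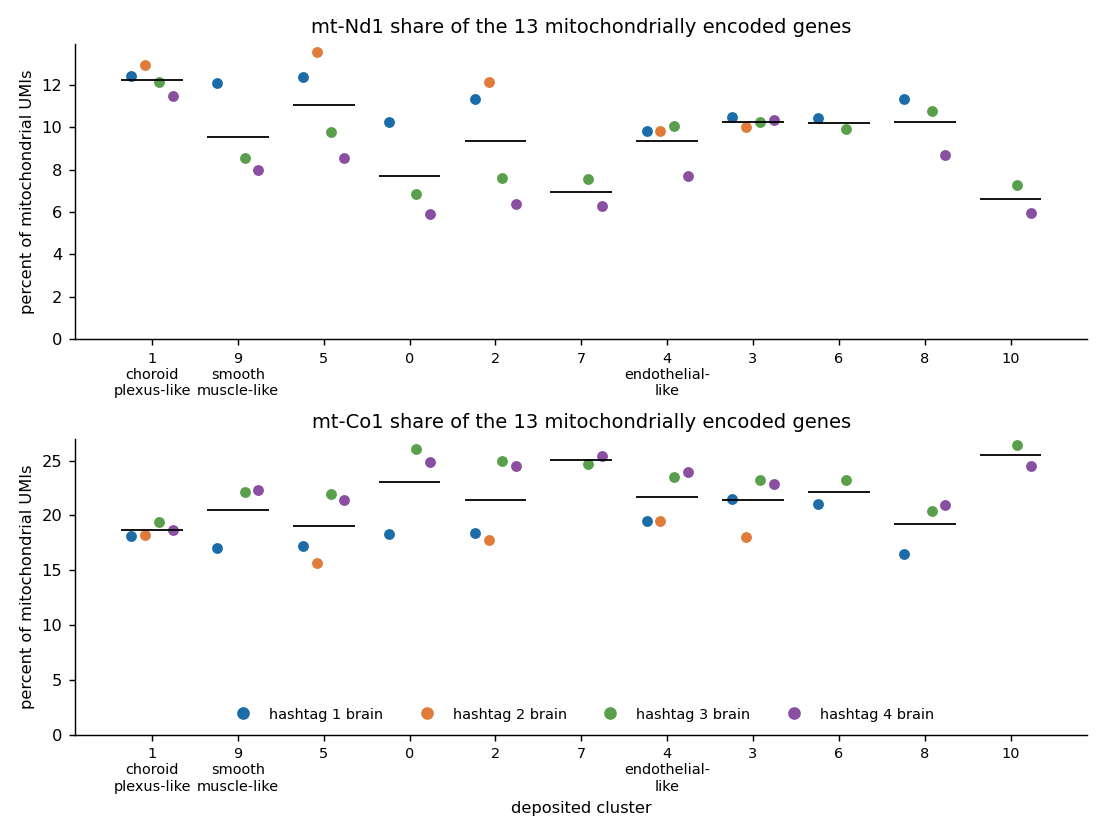
Share of mt-Nd1 and of mt-Co1 among the mitochondrially encoded UMIs, in percent, by cluster, with points for single brains and horizontal lines for their mean. The share of mt-Nd1 averages 12.2% in cluster 1 and 9.33% in cluster 4, and is 6.93% in cluster 7, where mt-Co1 makes 25%.

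Other genes of the pathway are given by list for cluster 1 minus cluster 4, beside 15.4% of all genes higher and 32.2% lower. Of the 4 subunits of complex II, only Sdha was higher (0.56) and none was lower. Of 12 genes of the citrate cycle, which feeds complexes I and II, 3 were higher, among them Idh3a (1.26) and Sucla2 (1.24), and 2 were lower (Idh3b -0.52 and Mdh2 -0.41). Of 9 genes of mitochondrial biogenesis, 2 were higher and 1 was lower. Ppargc1a, the coactivator PGC-1 alpha, had 0.68, 0.73, 0.44 and 0.64 per 10000 in cluster 1, against 0.14, 0.06, 0.02 and 0.00 in cluster 4. All brains of cluster 1 were above all of cluster 4, by 2.29 ± 0.24 on the log2 scale. Lrpprc, which binds mitochondrial mRNAs, differed by 0.77, and Polg, the mitochondrial DNA polymerase, by -0.72.

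Of 3 accessory genes of ATP synthase, 2 were higher: 2010107E04Rik by 1.22 and Usmg5 by 1.16. Cycs, the somatic cytochrome c, differed by 0.16 and Cyc1, cytochrome c1, by -0.038, and neither was called. Of 9 genes of complex IV assembly, 1 was higher (Cox20, 1.14) and 2 were lower (Cox16 -0.62 and Cox17 -0.51). Of 7 carriers and channels, none was higher and 2 were lower (Slc25a4 -0.46 and Vdac2 -0.35), near the share of all genes that were lower. Of 75 proteins of the mitochondrial ribosome, 1 was higher and 27 were lower, with a median of -0.36, beside 32.2% of all genes lower and a median of -0.26. This is near the background and is no result about the ribosomal list. These directions depend on the scaling: under median-of-ratios scaling the ribosomal list had 6 higher, 7 lower and a median of -0.06, the citrate cycle had 7 higher and 0 lower, and carriers had 2 higher and 0 lower. The 8 tested genes that match the prefix without being subunits were not called by limma, and among them Ndufaf6 differed by 0.57 (limma adjusted p = 0.053) and Ndufaf2 by -0.38 (limma adjusted p = 0.13).

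Cells of cluster 4 with high Ttr bear on this comparison. With them left out, 11 mitochondrial genes were higher (median 1.53), and 46 nuclear subunits were higher and 6 lower, beside 16.5% and 32.6% of all genes. The difference of Cox8b was then 4.28 and that of Cox6b2 3.49. In the Ttr-low cells of the clusters other than 1, Cox8b lay at 0.59% to 8.60% of its cluster 1 level in the same brain, and Enpp2, a choroid plexus marker that was not used to choose these cells, at 2.09% to 5.13%. Cox8b at or below the range of Enpp2 is not read as expression. In clusters 5, 6 and 8 Cox8b reached 8.60%, 6.59% and 6.79%, above that range. Cox6b2 lay at 18.9% to 32.8% of its cluster 1 level in cluster 6 and 7.68% to 15.4% in cluster 3. It lay at 6.10% to 14.8% in cluster 5 and 15.4% in cluster 8, and elsewhere reached at most 6.38%, in cluster 4. Cox6c lay at 28.0% to 49.7% of its cluster 1 level.

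Smooth muscle-like cluster 9 minus endothelial-like cluster 4 was fitted in brains 1, 3 and 4, the brains with enough cells. Of 76 nuclear subunits, 2 were higher and none was lower. Of the 8910 genes tested, 1.22% were higher and 5.60% lower. The nuclear count is therefore near the background and is no result about the subunits as a set. Ndufa4l2 had 1.12, 1.24 and 0.857 per 10000 in cluster 9 in brains 1, 3 and 4, against 0.737, 0.242 and 0.145 in cluster 4. It was higher without overlap, by 1.49 ± 0.33 (log2, SE; limma adjusted p = 0.0075). Cox4i2, the oxygen-responsive form of subunit 4, had 1.29, 0.666 and 0.367 per 10000 in cluster 9, against 0.447, 0.191 and 0.0549 in cluster 4. It was higher in cluster 9 within each of the 3 brains but overlapped between brains, with a difference of 1.45 ± 0.31 (limma adjusted p = 0.0071). The levels rest on few UMIs in brains 1, 3 and 4. Cox4i2 had 15, 13 and 28 UMIs in cluster 9 and 11, 9 and 5 in cluster 4. Ndufa4l2 had 13, 16 and 48 UMIs in cluster 9 and 18, 8 and 12 in cluster 4.

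Both calls were lost without brain 4, with counts summed over cells, without the brain as a block and under DESeq2, and both held under edgeR and in brains 3 and 4 alone (Ndufa4l2 1.97 and Cox4i2 1.49). Pericytes, which line capillaries, are known to carry both genes. All 5 pericyte markers were above 0 in cluster 4 in brains 1 to 4. Rgs5 was at 2.21, 2.90, 1.12 and 0.35 per 10000, and Vtn at 3.08, 4.14, 1.70 and 0.40. Pdgfrb was at 0.32, 0.35, 0.20 and 0.17, Kcnj8 at 0.35, 0.061, 0.22 and 0.018, and Abcc9 at 0.096, 0.068, 0.075 and 0.0057. The order of brains 1 to 3 differed between markers. The 5 summed to 4.51, 5.92 and 4.38 per 10000 in cluster 9 in brains 1, 3 and 4, against 6.05, 3.31 and 0.942 in cluster 4. In brain 1 of cluster 9, 3 of the 5 were above 0. The part of pericyte RNA in the result was not tested. No mitochondrially encoded gene was called by limma (3 at an unadjusted p under 0.05, 0 by edgeR and 0 by DESeq2), at a median of 0.47.

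Clusters 0, 2 and 7 pooled minus endothelial-like cluster 4 had 2 calls among nuclear subunits, both lower and both of the same pair of genes. None of the 76 was higher. Of the 9493 genes tested, 1.77% were higher and 8.26% lower, so the nuclear count is not above the background. Under median-of-ratios scaling 31.2% of all calls were higher, against 17.7%. Cox4i2 had 0.0733, 0, 0.0331 and 0.0306 per 10000 in the pooled clusters, against 0.447, 0.590, 0.191 and 0.0549 in cluster 4, a difference of -1.45 ± 0.35 (log2, SE; limma adjusted p = 0.019). Ndufa4l2 had 0.134, 0.0529, 0.0965 and 0.110 per 10000 in the pooled clusters, against 0.737, 0.526, 0.242 and 0.145, a difference of -1.23 ± 0.32 (limma adjusted p = 0.030). The brains of Ndufa4l2 did not overlap, and those of Cox4i2 did. In cluster 4 the levels rest on 11, 12, 9 and 5 UMIs of Cox4i2 and 18, 13, 8 and 12 of Ndufa4l2. The call of Ndufa4l2 was lost without brain 1, 2 or 3, and that of Cox4i2 without brain 1 or 3. In brains 3 and 4 alone Ndufa4l2 differed by -0.51 (limma adjusted p = 0.23) and Cox4i2 by -0.69 (limma adjusted p = 0.049). The 5 pericyte markers summed to 0.666, 0.592, 0.458 and 0.412 per 10000 in the pooled clusters, against 6.05, 7.52, 3.31 and 0.942 in cluster 4, and their part in the result was not tested. This comparison and the one before it share the cells of cluster 4. Ttr-low cells of clusters 0, 2 and 7 averaged 140, 125 and 133 per 10000 for the mitochondrial members. For the nuclear members they averaged 302, 312 and 325.

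The mitochondrially encoded genes of the pooled clusters depended on the brain. mt-Nd1 had 81.2, 109, 12.1 and 9.79 per 10000 in the pooled clusters in brains 1 to 4, against 40.4, 39.3, 34.4 and 21.2 in cluster 4. The pooled clusters were above cluster 4 in brains 1 and 2 and below it in brains 3 and 4. mt-Co3 did the same, with 162, 199, 31.6 and 31.6 per 10000 in the pooled clusters against 85.1, 89.3, 61.8 and 52.1 in cluster 4. Over 4 brains no mitochondrial gene was called (limma, 0 at an unadjusted p under 0.05, edgeR 0 and DESeq2 0), at a median of 0.10. In brains 3 and 4 alone, 11 of 13 were lower, at a median of -0.84, beside 12% of all genes. That fit leaves 1 residual degree of freedom. Of nuclear subunits 7 of 76 were lower and none was higher, no more than the share of all genes (12% lower and 7.75% higher). In clusters 0, 2 and 7, brain 2 held only 5, 7 and 4 Ttr-low cells, too few to enter a fit. With all cells, leaving out each brain in turn gave 0 mitochondrial calls. With Ttr-high cells left out, in brains 1, 3 and 4, 10 mitochondrial genes were lower (median -0.72), beside 12.6% of all genes lower and 8.15% higher. In that setting 2 nuclear subunits were higher (Atp5g2 and Ndufb9) and 5 lower, again no more than the share of all genes.

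Cluster 5 minus clusters 0, 2 and 7 pooled set the cluster with the highest mean mitochondrial sum against a pool of 44 to 1253 cells per brain. All 13 mitochondrially encoded genes were higher in cluster 5, at a median of 2.06, which its leading genes had already shown. mt-Nd1 had 205, 222, 122 and 105 per 10000 in cluster 5 and 81.2, 109, 12.1 and 9.79 in the pooled clusters. It was higher in cluster 5 within each brain, and brain 4 of cluster 5 lay below brain 2 of the pooled clusters. mt-Co1 had 282, 253, 261 and 267 per 10000 in cluster 5, nearly level over brains, and 122, 153, 38.4 and 36.3 in the pooled clusters.

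Most nuclear subunits of cluster 5 were not called: of 75 tested, 9 were higher, 4 were lower and 62 did not pass, at a median of 0.05. Of the 9436 genes tested, 4.0% were higher and 6.43% lower. Per-10000 levels in cluster 5 share their total with mitochondrial RNA. Per 10000 UMIs of nuclear genes, 14 subunits were higher and 3 lower, at a median of 0.19. Of the 9423 genes tested in that setting, 430 were higher and 370 lower, at a median of 0.08. Ndufa1 had 8.18, 9.15, 4.01 and 3.73 per 10000 in cluster 5, against 5.02, 6.63, 1.77 and 1.72 in the pooled clusters, a difference of 0.84 ± 0.16 (log2, SE; limma adjusted p = 0.0043). Atp5a1 had 5.54, 4.73, 4.99 and 4.03 per 10000 in cluster 5, against 3.37, 3.45, 2.76 and 2.51, a difference of 0.66 ± 0.15 (limma adjusted p = 0.012). Atp5a1 did not overlap between the classes, though its call was lost without brain 1, 3 or 4, and Ndufa1 did overlap. Cox8b and Cox6b2 differed by 1.62 and 1.29, Uqcrb by 0.57, Ndufa3 by 0.51, Cox6c by 0.48, and Ndufa13 and Atp5k by 0.46 each.

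The 4 lower subunits were Atp5g2, Ndufb4, Cox7a2l and Atp5c1. Atp5g2 had 3.48, 4.24, 6.10 and 5.64 per 10000 in cluster 5, against 6.88, 5.78, 10.7 and 10.3 in the pooled clusters, a difference of -0.76 ± 0.15 (limma adjusted p = 0.0043), lower within each brain with overlap between brains. Ndufb4 had 1.84, 1.41, 1.85 and 1.97 per 10000 in cluster 5, against 2.72, 2.72, 3.40 and 3.26, without overlap, a difference of -0.75 ± 0.16. Cox7a2l and Atp5c1 differed by -0.74 and -0.66. On the per-10000 scale these 4 were also lower in cluster 1 than in cluster 4. Ttr-high cells are frequent in cluster 5, and with them left out, in brains 3 and 4, 3 nuclear subunits were higher (Ndufs1 1.24, Atp5a1 0.61 and Atp5b 0.45) and 14 were lower, beside 10.8% of all genes higher and 4.99% lower. Cox8b (0.52, limma adjusted p = 0.44) and Cox6b2 (0.75, limma adjusted p = 0.23) were then not called, and all 13 mitochondrial genes stayed higher, at a median of 2.84. In brains 3 and 4 with all cells, 14 nuclear subunits were higher and 12 lower of 75, beside 14.0% and 9.78% of all genes.

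Outside the mitochondrial ribosome, the rest of the pathway in cluster 5 had few calls. Ogdh of the citrate cycle (0.96) and 2010107E04Rik (0.51) were higher. Sdhd of complex II (-0.85), Cycs (-0.55), and the ADP and ATP carriers Slc25a4 (-0.76) and Slc25a5 (-0.54) were lower. Of 77 mitochondrial ribosomal proteins, none was higher and 18 were lower, at a median of -0.52. Nuclear RNAs used as signs of RNA quality are given beside these values. Neat1 was higher in cluster 5 by 1.02. Within cluster 5, Malat1 averaged 68.1 per 10000 in Ttr-high and 359 in Ttr-low cells. The mitochondrial sums of the same cells were 1703 and 989 per 10000. The part of damage in the cluster 5 levels was not tested. In cells with a mitochondrial fraction of at most 10%, 2 nuclear subunits were called.

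Cluster 3 minus cluster 6, the clusters with the most RNA of the immune gene Cd52 (22.4 and 17.9 per 10000), could be fitted in brains 1 and 3 only, which leaves 1 residual degree of freedom, so the p-values rest on the spread of all genes. Of 13 mitochondrially encoded genes 3 were lower in cluster 3 and none was higher, and of 73 nuclear subunits 2 were lower and none was higher. Of the 6612 genes tested, 6.03% were higher and 2.22% lower, so the nuclear count is near the background and is no result about the subunits. The 3 mitochondrial calls were lost without a filter on low genes, without the brain as a block and in Ttr-low cells. Nuclear subunits had 2, 0 and 1 calls in those settings. The higher share of all calls was 73.1%, and 57.3% under median-of-ratios scaling. mt-Atp6 had 44.1 and 57.3 per 10000 in cluster 3 in brains 1 and 3, against 63.2 and 85.6 in cluster 6, a difference of -0.55 ± 0.14 (log2, SE; limma adjusted p = 0.0029). mt-Co3 and mt-Co1 differed by -0.53 and -0.43. Ndufv2, an iron-sulfur subunit of complex I, had 0.289 and 1.23 per 10000 in cluster 3, against 1.68 and 2.44 in cluster 6, a difference of -1.57 ± 0.40 (limma adjusted p = 0.0021). Ndufa4 had 5.20 and 4.70 per 10000 in cluster 3, against 8.94 and 8.65 in cluster 6, a difference of -0.82 ± 0.27 (limma adjusted p = 0.034). Cluster 3 was below cluster 6 in both brains for these 5 genes, but the rule that named them asks for a call with the same direction in both brains. edgeR called 10 nuclear subunits and 6 mitochondrial genes lower, beside 3.31% of all genes. Among other genes of the pathway, Atpif1, the inhibitor of ATP synthase, differed by -0.93, and Ucp2, an uncoupling protein of immune cells, by 0.95.

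CD45 tag-high minus CD45 tag-low cells was the comparison whose classes come from a protein tag (300 counts) and not from RNA. CD45 marks leukocytes. Nuclear subunits gave 1 lower call and no higher call of 75, and mitochondrially encoded genes none, against 7.60% higher and 2.94% lower of 9355 genes tested. Cox8b had 1.17, 0.723, 0.248 and 0.417 per 10000 in tag-high cells, against 3.69, 3.72, 0.677 and 0.651 in tag-low cells, a difference of -1.37 ± 0.27 (log2, SE; limma adjusted p = 0.017). It was lower in tag-high cells within each brain, with overlap between brains, and the call was lost without brain 1 or brain 2. Choroid plexus-like cluster 1 made up 291 of the 844 cells of brain 1 and 206 of the 410 of brain 2, against 181 of 1385 in brain 3 and 202 of 2029 in brain 4, and its part in the result was not tested.

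mt-Nd1 had 38.2, 30.3, 26.2 and 27.9 per 10000 in tag-high cells, against 97.2, 117, 31.1 and 23.1 in tag-low cells. Tag-high cells were nearly level over brains, and tag-low cells were high in brains 1 and 2 alone. The difference of -0.82 ± 0.42 was not called (limma adjusted p = 0.25). At a median of -0.80, no mitochondrially encoded gene was called by limma (7 at an unadjusted p under 0.05), by edgeR or by DESeq2. In brains 3 and 4 alone, 4 mitochondrial genes were lower, and 17 of 75 nuclear subunits were lower and 2 higher. Of all genes 24.2% were lower and 18% higher in that setting, so the lower counts of both kinds of member are near the share of all genes. Ucp2 was higher in tag-high cells by 1.71.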

How the data were processed

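A cDNA library, an antibody-tag library and a hashtag library of 1 pool of cells were measured. The deposited gene values are natural log values, ln(1 + UMIs per 10000 UMIs of the cell), as the file's values show. The submitters' processing notes list Cell Ranger 2.1, Seurat 2.3.4 and mm10 and say nothing of what each was used for. The authors' deposited p-values and q-values of hashtag assignment were not used. The deposited cell table gives the authors' tag counts, hashtag counts and UMI counts, their mitochondrial fraction, hashtag class and cluster number. How cells were filtered, doublets treated and strand used is not stated, and no doublet caller was run. Unlogged values times the deposited totals gave UMI counts, of which 99.8% came out whole within 0.01. Both classes of a comparison come from the same animals, which is why the brain is the replicate and the block.

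Values were unlogged and averaged over the cells of a class in a brain with at least 20 cells. Genes with a UMI in at least 5% of the cells compared were tested with limma 3.58.1 in R 4.3.3 with an intensity trend, on log2(mean + 0.1), with Benjamini-Hochberg adjustment over all genes tested. edgeR 4.0.16 and DESeq2 1.42.0 on the recovered counts, other scalings, pseudocounts and filters, no block, cells with at least 80% of hashtag counts from their own hashtag, cells with a mitochondrial fraction of at most 10%, and each brain left out in turn were alternatives. Restricting cells to Ttr under 500 per 10000 outside cluster 1, taking Ttr out of the total, and using brains 3 and 4 alone were added after seeing the data. The fitting code was run on simulated summed counts with known changes and the same spread parameter for every gene. This checks the code, and not how the fits behave under the spread of the real data. The genes named are all mitochondrially encoded members, the 5 nuclear subunits of each complex with the highest mean, the families with tissue-restricted forms, and up to 5 called members per direction that moved the same way in every brain. Other names were chosen after their values were seen, and 1 gene of the citrate cycle list is not reported here. The members and lists were chosen with earlier results of these data known. Since 1 pool was sequenced, the p-values measure the spread between the brains in a fit. In fits with 1 residual degree of freedom they rest on the spread of all genes.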

Additional observations from a re-analysis of the deposited data

Results flagged for a closer look

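Among 75 groups of 4 brains whose spread was examined, 4 mitochondrially encoded genes had 1 brain far from the other 3 in the difference of choroid plexus-like cluster 1 minus endothelial-like cluster 4. Chance flags about 1 group in 20. The gap of the lone brain is given as a fraction of the whole range. mt-Nd4 differed by 1.29, 1.29, 1.28 and 1.79 on the log2 scale in brains 1 to 4, with brain 4 apart by 0.983 of the range. mt-Co2 differed by 1.11, 1.09, 1.09 and 1.63, with brain 4 apart by 0.957. mt-Co3 differed by 1.24, 1.18, 1.24 and 1.60, with brain 4 apart by 0.862. mt-Nd5 differed by 1.49, 1.39, 0.67 and 1.52, with brain 3 apart by 0.843. All 4 genes were higher in cluster 1 in each of the 4 brains. In brain 4 the level in cluster 4 was the lowest of the 4 brains for mt-Nd4 (10.4 per 10000), mt-Co2 (15.2) and mt-Co3 (52.1).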

How the results depend on the processing

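Calls of named members were stable in most settings: of the values of named genes under an alternative, 1121 kept their direction and side of the threshold, 148 lost the call, 6 gained one and 16 changed sign. Counts of all genes, mitochondrially encoded genes and nuclear subunits called, and summed levels, held within 1.5 times or 1 SD in 298 values and moved in 103. The cause of these moves was not tested. Ndufa7, Ndufb4, Atp5c1, mt-Nd6 and mt-Atp8 in cluster 1 minus cluster 4 were the genes whose sign changed. mt-Nd6 was 0.11 under median-of-ratios scaling, 0.25 under edgeR, 0.27 under DESeq2 and 0.12 per 10000 without Ttr, and lay between -0.304 and 0.0636 with each brain left out. mt-Atp8 was -0.0409 with a mitochondrial fraction of at most 10% and -0.11 in brains 3 and 4, and lay between -0.0839 and 0.151 with each brain left out. Ndufa7 was 0.11, 0.20, 0.20 and 0.21 under median-of-ratios scaling, edgeR, DESeq2 and without Ttr, Ndufb4 was 0.0443 without Ttr, and Atp5c1 was 0.0393, 0.0402 and 0.0825 under edgeR, DESeq2 and without Ttr.

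Leaving out each brain in turn gave, in cluster 1 minus cluster 4, 3372 to 3821 genes called, 11 mitochondrial genes and 39 to 44 nuclear subunits. Cluster 9 minus cluster 4 gave 487 to 533 genes and 0 to 2 nuclear subunits. Clusters 0, 2 and 7 minus cluster 4 gave 484 to 1069 genes and 0 to 2 nuclear subunits. Cluster 5 minus clusters 0, 2 and 7 gave 478 to 1280 genes, 12 to 13 mitochondrial genes and 5 to 15 nuclear subunits. The CD45 tag comparison gave 542 to 1225 genes, 0 to 3 mitochondrial genes and 0 to 3 nuclear subunits. For cluster 3 minus cluster 6, leaving out a brain or keeping cells with a clear hashtag gave no value, because too few brains were left.

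Without the replicate block, which pairs the classes of the same brain, cluster 9 minus cluster 4 gave 396 genes and 0 nuclear subunits, clusters 0, 2 and 7 minus cluster 4 gave 1 nuclear subunit, cluster 5 minus clusters 0, 2 and 7 gave 1 gene, 0 mitochondrial genes and 0 nuclear subunits, and cluster 3 minus cluster 6 gave 208 genes with 0 of either kind of member. The CD45 tag comparison then gave 0 nuclear subunits, and cluster 1 minus cluster 4 gave 37. 

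In cluster 1 minus cluster 4, cells with a clear hashtag (at least 80%) gave 2662 genes. In cluster 9 minus cluster 4, no filter on low genes gave 320 genes, summed counts 367 genes and 0 nuclear subunits, and DESeq2 274 genes and 0 nuclear subunits. In clusters 0, 2 and 7 minus cluster 4, nuclear subunits called were 1 with a pseudocount of 1, 0 without a filter, 1 under DESeq2, 0 with a clear hashtag, 12 with a mitochondrial fraction of at most 10%, 7 in Ttr-low cells and 7 in brains 3 and 4. Genes called there were 267, 543, 2075, 1973 and 1877 without a filter, with a clear hashtag, with the mitochondrial limit, in Ttr-low cells and in brains 3 and 4, and mitochondrial genes 10, 10 and 11 in the last 3. In cluster 5 minus clusters 0, 2 and 7, genes called were 620 with a pseudocount of 0.01, 72 without a filter, 2309 under edgeR, 1770 under DESeq2, 481 with a clear hashtag, 285 with the mitochondrial limit, 1499 in Ttr-low cells and 2246 in brains 3 and 4. No filter gave 0 mitochondrial genes and 0 nuclear subunits there, a clear hashtag 2 and the mitochondrial limit 2 nuclear subunits, and brains 3 and 4 gave 26. In cluster 3 minus cluster 6, mitochondrial genes were 6 under median-of-ratios scaling, summed counts, edgeR and DESeq2, and 0 without a filter and in Ttr-low cells. Nuclear subunits there were 6 under median-of-ratios scaling, 1 with a pseudocount of 1, 10 under edgeR and 1 in Ttr-low cells, and DESeq2 called 166 genes. In the CD45 tag comparison, nuclear subunits were 0 with a pseudocount of 1, without a filter, with summed counts, under edgeR and with a clear hashtag, 2 with a filter of 1% of cells and 19 in brains 3 and 4. Genes called there were 566 with summed counts, 562 under edgeR, 538 with a clear hashtag and 3954 in brains 3 and 4, and mitochondrial genes were 1 in Ttr-low cells, 2 with a tag limit of 1000 and 4 in brains 3 and 4.

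Mean summed levels moved as follows. The mitochondrial sum of cluster 5 was 637 with the mitochondrial limit and 967 in Ttr-low cells, and that of cluster 6 was 273 in Ttr-low cells. In cluster 7 it was 128 with summed counts, 135 with a clear hashtag, 139 with the mitochondrial limit and 131 in Ttr-low cells, and in cluster 10 it was 178 with summed counts and 186 with a clear hashtag. The nuclear sum was 544 per 10000 UMIs of nuclear genes in cluster 1, 307 in Ttr-low cells of cluster 4, 281 in Ttr-low cells of cluster 5, and in cluster 6 it was 328 with summed counts, 314 in Ttr-low cells and 339 per 10000 UMIs of nuclear genes. Classes of 20 to 100 cells limit the low members most, such as Cox4i2 with 265 UMIs in all cells.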

Other observations

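Cox6a2, the heart and muscle form of subunit 6a of complex IV, was too rare to be tested: it had 95 UMIs in all 4668 cells. Of these, 37 lay in 5 cells with at least 3 UMIs each. Cluster 3 held 3 of these cells, with 3, 7 and 8 UMIs, cluster 6 held 1 with 13 UMIs, and cluster 8 held 1 with 6 UMIs. Cluster 3 had 32 UMIs, a level of 0.185 per 10000 (exact Poisson 95% interval 0.127 to 0.261, counting error only), and cluster 6 had 16. In cluster 5 it had 0 UMIs in 226 cells, which allows a level of up to 0.0304 per 10000 by the limit of 3 counts and 0.0374 by the exact Poisson 95% interval.

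In cluster 8, which had the highest mean for 51 of the 77 nuclear subunits, the sums per 10000 were 163 for complex I, 73.2 for complex III, 184 for complex IV and 137 for complex V, against 148, 68.4, 163 and 120 in cluster 1 and 110, 44.8, 105 and 86.7 in cluster 4. In these means over brains the 4 complexes had the same order of clusters, 8, 1 and 4. The nuclear sums of single brains overlapped, at 432 to 717 per 10000 in cluster 8 and 481 to 531 in cluster 1. The 66 Ttr-low cells of cluster 8 averaged 344 per 10000, against 742 in its 119 Ttr-high cells. Cluster 8 was not in a tested comparison.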
